A study of Mus musculus with 12 samples.

Results

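Lipid droplet and adipocyte genes were followed in 2 muscles of mice that lacked hexose-6-phosphate dehydrogenase and of wild type mice. The set held 10 named genes, and every probe set mapped to a single one of their symbols was taken. Plin1 had no probe set under its symbol in the probe table and was not analysed here. The other 9 genes were read by 14 of the 34945 probe sets with 1 symbol, and all 9 were among the 13009 genes tested. Adipoq and Fabp4 stood for fat tissue, and Cidea, Cidec, Plin2, Plin4, Dgat2, Scd1 and Fasn for lipid droplets and the lipid synthesis that fills them.

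The groups were soleus of H6pd knockout mice (KO soleus), soleus of wild type mice (WT soleus), tibialis anterior of knockout mice (KO TA) and tibialis anterior of wild type mice (WT TA), all at 4 weeks of age and with 3 arrays each. H6pd encodes the enzyme that makes NADPH in the lumen of the endoplasmic reticulum. At this age the mice were weaned and their muscle was without overt myopathy by histology, and the muscles were chosen for their unlike fibre types and metabolism, per the design text. The labels call the 3 arrays of a group biological replicates and give neither the deleted part of H6pd nor the strain.

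White adipocytes store triglyceride in 1 large droplet, coated by perilipins and enlarged by CIDE proteins, and secrete hormones such as adiponectin. Muscle fibres hold small droplets of their own, and oxidative fibres are known to hold more of them than glycolytic fibres. A muscle dissected whole can also carry fat cells between its fibres and on its surface, so both sources can feed the same transcript.

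Per-array values are normalised log2 signals, and levels are compared between arrays of 1 probe set only, because probe sets differ in brightness. Most of the table lay near its floor, with 60.7% of values under log2 4. H6pd itself read 4.19, 4.41 and 6.10 in KO soleus against 5.57, 6.12 and 7.11 in WT soleus, and 6.89, 6.49 and 7.49 in KO TA against 6.37, 6.26 and 7.92 in WT TA. Neither difference passed the test (adjusted p = 0.577 in soleus and 0.966 in TA), the 1 probe set may lie outside the deletion, and the genotype labels were used as given. On the second principal component the arrays numbered 3 of all 4 groups lay apart from the other 8. Muscle identity was clear, since Tnni1 and Tnnt1, troponin subunits of slow fibres, were higher in WT soleus than in WT TA by 8.31 and 7.58 on the log2 scale.

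Promoter sequence was read for genes whose signal moved together across soleus arrays or differed between muscles. Each line gives the 250 bases before a transcript start in the RefSeq table of build GRCm38.p6, 5′ to 3′ on the gene's strand. Capitals mark AGGTCA (the hexamer bound by nuclear receptors such as PPARG), CCAAT or TATAAA on either strand. Adipoq is on the plus strand (chr16:23146286-23146535), and Fasn (chr11:120824548-120824797) and Plin2 (chr4:86670060-86670309) are on the minus strand.
Adipoq: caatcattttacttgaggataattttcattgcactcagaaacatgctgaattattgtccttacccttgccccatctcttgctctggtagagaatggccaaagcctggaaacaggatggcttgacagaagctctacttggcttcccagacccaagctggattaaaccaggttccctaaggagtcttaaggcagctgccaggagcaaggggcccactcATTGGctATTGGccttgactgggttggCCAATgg
Fasn: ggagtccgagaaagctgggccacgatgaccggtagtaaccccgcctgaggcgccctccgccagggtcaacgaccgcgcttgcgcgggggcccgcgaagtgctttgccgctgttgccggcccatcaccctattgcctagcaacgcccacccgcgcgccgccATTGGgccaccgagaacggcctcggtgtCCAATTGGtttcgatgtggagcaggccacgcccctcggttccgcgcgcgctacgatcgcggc
Plin2: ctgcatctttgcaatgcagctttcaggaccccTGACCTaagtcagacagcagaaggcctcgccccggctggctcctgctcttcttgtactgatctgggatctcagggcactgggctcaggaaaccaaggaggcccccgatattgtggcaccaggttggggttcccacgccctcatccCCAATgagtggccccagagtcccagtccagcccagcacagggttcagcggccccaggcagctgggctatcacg
The Adipoq and Fasn windows held 3 CCAAT matches each, in Adipoq all within 34 bases of the start, and 33.8% of the 32851 promoter windows of this length held at least 1. The pair of CCAAT matches nearest the start in Fasn face each other and share letters with an E-box (CANNTG), a motif present in 66.2% of windows. Plin2 held 1 AGGTCA, found in 14.0% of windows, and its best match to the DR1 element (AGGTCA repeated with a spacing of 1 base) had 2 mismatches, a match at least as close as which 3.24% of windows hold. None of these 3 windows held TATAAA, found in 12.4% of windows, or the C/EBP palindrome TTGCGCAA, found in 0.164%. These matches describe letters only. The Fasn window lies wholly, and the start-proximal part of the Plin2 window, inside the widest gene model of the RefSeq gene table. Scd1, Fabp4 and Dgat2 had no entry.

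Adipoq, the hormone gene of mature fat cells, was far brighter in soleus than in TA and varied widely within each group. It read 11.09, 9.003 and 10.40 in KO soleus for replicates 1, 2 and 3, and 10.58, 10.23 and 7.97 in WT soleus. In TA it read 7.45, 6.35 and 5.80 in KO and 6.00, 6.36 and 2.59 in WT. Every soleus array was above every TA array, the genotypes overlapped in both muscles, and WT TA replicate 3 lay at the floor. Since these are whole muscles, fewer fat cells and less RNA per fat cell cannot be told apart.

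In KO mice the soleus minus TA log2 difference of Adipoq was 3.63 (SE 1.05, adjusted p = 0.0611), and it passed with the replicate number as a block (adjusted p = 0.0183). In WT mice Adipoq was 24.5-fold higher in soleus than in TA (log2 difference 4.61, SE 1.05, adjusted p = 0.0223). Without WT TA replicate 3 the difference was 3.42 (adjusted p = 0.0426), and it missed the threshold without WT soleus replicate 1 (4.12, adjusted p = 0.088) or replicate 2 (4.30, adjusted p = 0.0776). Between genotypes Adipoq differed by 0.57 in soleus (95% interval -1.76 to 2.91) and by 1.56 in TA (-0.78 to 3.89), with adjusted p of 0.999 and 0.508. Both values rested on single arrays, being -0.24 in soleus without WT soleus replicate 3 and 0.36 in TA without WT TA replicate 3.

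Fabp4, a fatty acid carrier of fat cells that capillary endothelium and macrophages also make, was bright on every array. Its brightest probe set read 14.86, 14.43 and 14.22 in KO soleus and 14.82, 14.64 and 14.02 in WT soleus, then 14.14, 14.30 and 13.95 in KO TA and 14.07, 13.80 and 13.43 in WT TA. On this probe set the muscles overlapped in both genotypes. Soleus exceeded TA by 0.37 in KO (adjusted p = 0.389) and by 0.73 in WT (SE 0.24, adjusted p = 0.0826, and 0.00687 with the replicate block). KO minus WT was 0.01 in soleus (95% interval -0.53 to 0.54) and 0.36 in TA (-0.17 to 0.90). Of the 4 probe sets of Fabp4, none passed the test between genotypes in either muscle. A dimmer probe set lay higher in soleus than in TA without overlap, by 0.73 in KO and 1.07 in WT. It did not pass by limma over all probe sets (adjusted p = 0.272 in KO and 0.0929 in WT).

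**Figure D1:**
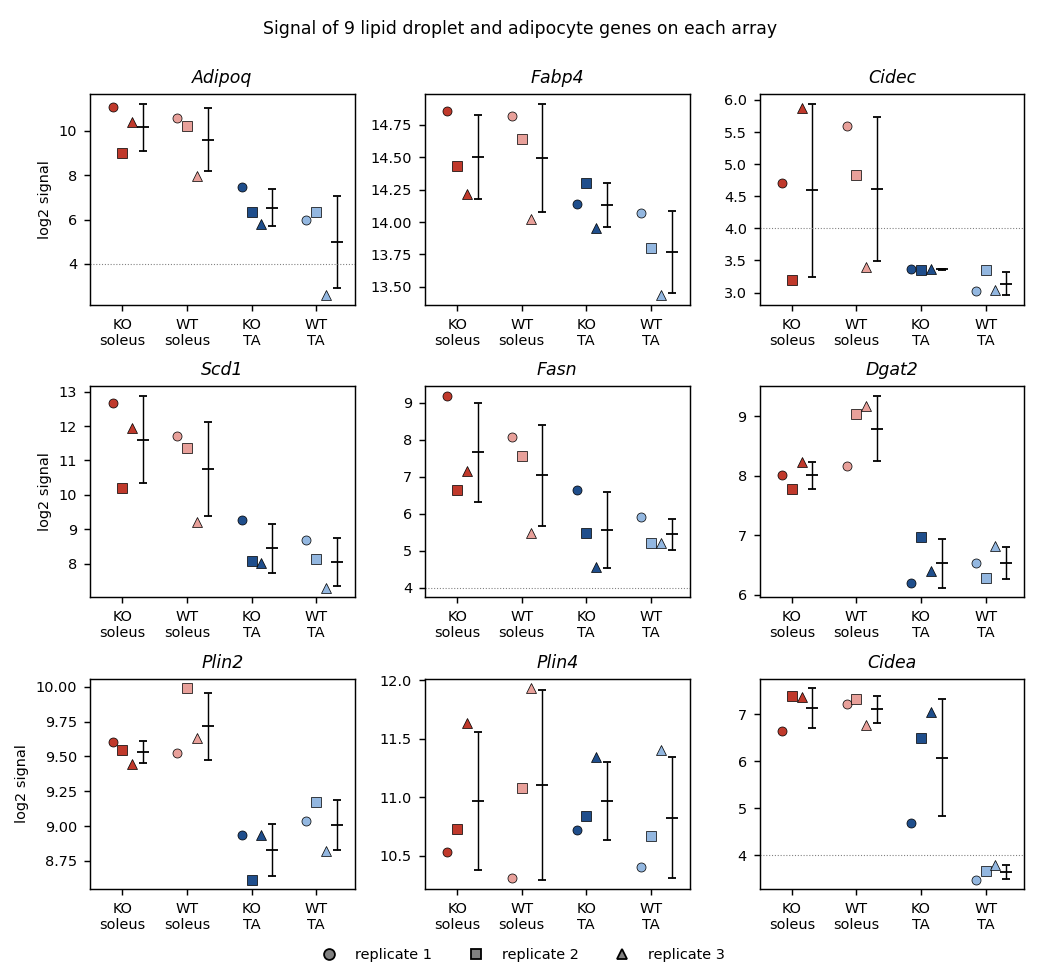
Normalised log2 signal of 9 genes on each of the 12 arrays, with groups along the horizontal axis and 1 panel with its own vertical scale per gene; marker shapes give replicate numbers, bars the mean and SD of 3 arrays, and the dotted line log2 4. Adipoq and Scd1 separate the muscles on every array within a genotype, Plin4 is highest on the replicate 3 array of each group, and Cidea is under log2 4 on all 3 WT TA arrays and above it on all 3 KO TA arrays.

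Wider marker lists placed these readings. Of 20 adipocyte markers listed, 17 had a probe set and 14 were tested. Between genotypes 0 of the 14 passed the test in soleus (median log2 difference 0.05, against 0.00 over all genes) and 0 in TA (0.02, against -0.00). Their summed linear signal, of which Fabp4 and Lpl made up 94.9% to 98.6% on every array, lay between 28600 and 34100 on KO TA arrays and between 26300 and 28200 on WT TA arrays, and in soleus between 48500 and 60400 in KO and between 51800 and 63400 in WT. The sum of the other 12, taken after the values were seen, spanned 570 to 715 in KO TA and 423 to 640 in WT TA, and 931 to 3100 in KO soleus and 722 to 2200 in WT soleus, overlapping in both muscles. On all 6 TA arrays 7 of the 14 were under log2 4, which were Cidec, Retn, Cebpa, Pck1, Mrap, Acvr1c and Nnat.

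Between muscles, 1 of the 14 adipocyte markers rose in KO soleus over KO TA, Lpl, where 4.34% of all genes did, and 2 in WT soleus over WT TA, Adipoq and Lpl, where 4.44% did. With the replicate number as a block 2 rose in KO, with Adipoq added, where 16.9% of all genes passed in either direction, and 4 in WT, with Fabp4 and Lipe (0.71) added, where 18.2% passed. Genes added by the block here and below were named after their values were seen, and the block took away none of the calls of these lists. Lpl, the lipase that frees fatty acids from circulating triglyceride, is also made by muscle fibres, and it was higher in soleus by 1.26 in KO (SE 0.14, adjusted p = 0.000759) and by 1.47 in WT (SE 0.14, adjusted p = 0.000306). Retn, the resistin gene of fat cells, read between 2.11 and 6.25 in KO soleus, between 2.11 and 4.63 in WT soleus and between 2.06 and 2.12 on the TA arrays, and its KO minus WT difference in soleus was 0.84 (SE 0.94, adjusted p = 0.958).

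Lists of other cells that can make Fabp4 held 0 genes past the test between genotypes. In TA, 11 of 12 endothelial markers had a higher mean in KO (median 0.15) and 0 passed the test, and in soleus 12 of 12 had a lower mean in KO (median -0.30) and 0 passed. Over all genes 48.6% had a higher mean in KO in TA and 51.07% in soleus. Markers of the same cell type are not independent readings. The summed linear signal of the endothelial markers spanned 7230 to 8780 in KO TA and 6370 to 7580 in WT TA, and 5600 to 9420 in KO soleus and 7230 to 10300 in WT soleus. Pecam1 and Tek, endothelial surface proteins, rose in WT soleus over WT TA (0.97 and 0.63), and 0 endothelial genes passed between the KO muscles. In the blocked fit 1 of the 12 rose between the KO muscles, Tek (0.41), and 5 between the WT muscles, with Kdr (0.96), Emcn (0.78) and Cd93 (0.62) added. Of all genes 4.34% passed as higher in KO soleus over KO TA and 4.44% in WT soleus over WT TA. With the block 16.9% and 18.2% passed, in either direction. Of 9 macrophage markers tested, 0 passed between genotypes or between muscles. Of 8 fibroblast markers, 0 passed between genotypes (median 0.06 in soleus and 0.24 in TA), and Fn1, fibronectin, rose in soleus over TA in both (1.60 in KO and 1.84 in WT), joined by Postn with the block (2.37 in KO and 2.05 in WT). The part of endothelial cells and macrophages in the Fabp4 signal was not tested.

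Scd1 makes monounsaturated fatty acids from saturated ones and is abundant in fat and liver. It read 12.68, 10.20 and 11.93 in KO soleus and 11.70, 11.35 and 9.20 in WT soleus, against 9.27, 8.08 and 8.003 in KO TA and 8.68, 8.13 and 7.30 in WT TA. All soleus arrays lay above all TA arrays of their genotype, and the genotypes overlapped. Scd1 was 8.89-fold higher in KO soleus than in KO TA (log2 difference 3.15, SE 0.77, adjusted p = 0.0332). This call was lost without KO soleus replicate 1 (2.61, adjusted p = 0.125) or replicate 3 (2.99, adjusted p = 0.077), and without KO TA replicate 2 (2.97, adjusted p = 0.108) or replicate 3 (2.93, adjusted p = 0.0957). In WT the difference was 2.71 (SE 0.77, adjusted p = 0.0518, and 0.0174 with the replicate block).

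Between genotypes Scd1 differed by 0.85 in soleus (95% interval -0.87 to 2.57, adjusted p = 0.897) and by 0.41 in TA (-1.31 to 2.13, adjusted p = 0.856). A second, dim probe set of Scd1 rose above the floor on 3 soleus arrays only, reading 5.48 on KO soleus replicate 1 and 5.09 and 4.02 on WT soleus replicates 1 and 2. On the brighter probe set the soleus arrays bright in Scd1 were the ones bright in Adipoq. On the dim one KO soleus replicate 3 read 2.65, at the floor, and KO minus WT in soleus was -0.26 (SE 0.75).

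Fasn, the synthase that builds palmitate with NADPH made in the cytosol, ranked the soleus arrays much as Adipoq did. It read 9.19, 6.65 and 7.15 in KO soleus and 8.07, 7.56 and 5.49 in WT soleus. In TA it read 6.64, 5.48 and 4.57 in KO and 5.92, 5.19 and 5.21 in WT. KO soleus lay above KO TA on all arrays, although KO soleus replicate 2 and KO TA replicate 1 were almost level, and WT soleus and WT TA overlapped. Soleus minus TA was 2.10 in KO (SE 0.82, adjusted p = 0.15, and 0.0234 with the replicate block) and 1.60 in WT (SE 0.82, adjusted p = 0.241). KO minus WT was 0.62 in soleus (95% interval -1.20 to 2.44) and 0.12 in TA (-1.70 to 1.94), neither past the test.

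How far the other 8 genes ran with Adipoq was measured within each muscle, over 6 arrays of both genotypes, with exact 2-sided permutation tests and adjustment over the 16 relations. In soleus Scd1 had r = 0.989 with Adipoq (exact permutation p = 0.00278, adjusted p = 0.0333) and rho = 0.943 (p = 0.0167, adjusted p = 0.133), and r was 0.932 without the 2 arrays farthest from the median. Fasn in soleus had r = 0.937 (exact permutation p = 0.00417, adjusted p = 0.0333) and rho = 0.943 (p = 0.0167, adjusted p = 0.133), and r = 0.927 without the same 2 arrays, KO soleus replicate 2 and WT soleus replicate 3. The other soleus relations did not pass. Fabp4 reached r = 0.785, and Cidec r = 0.794, which became -0.38 without these arrays.

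In TA none of the 8 relations passed the exact permutation test after adjustment. Scd1 had r = 0.842 there (p = 0.0514, adjusted p = 0.2) but -0.167 without KO TA replicate 1 and WT TA replicate 3, so the TA relation rested on those arrays. In soleus r with Adipoq was 0.06 for Cidea, -0.00 for Plin2 and -0.43 for Dgat2, and without KO soleus replicate 2 and WT soleus replicate 3 it was -0.956, -0.398 and -0.762 in the same order, over 4 arrays, so these values rested on those arrays too. The 6 arrays of a muscle hold both genotypes and share 1 normalisation, and the arrays within a genotype were too few for a value of their own.

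**Figure D2:**
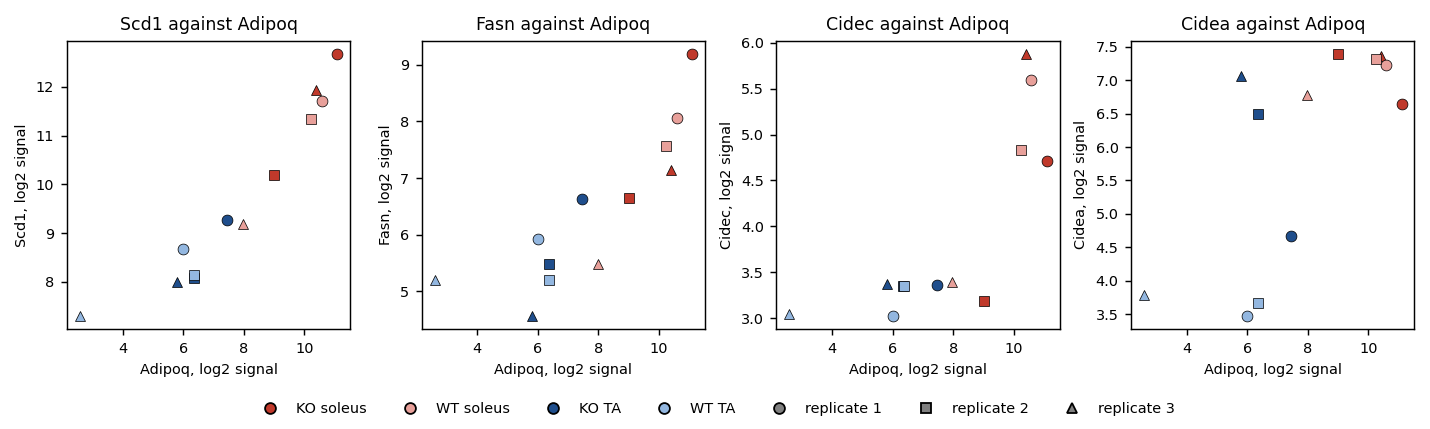
Log2 signal of Scd1, Fasn, Cidec and Cidea (vertical axes) against Adipoq (horizontal axes) on the 12 arrays; colour gives the group and marker shape the replicate. Scd1 and Fasn climb with Adipoq among the 6 soleus arrays (r = 0.989 and 0.937), Cidec leaves the floor on 4 soleus arrays only, and Cidea is high on the soleus arrays and on KO TA replicates 2 and 3.

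Genes outside the set whose deviations from their group means ran most like those of Adipoq over the 12 arrays, among 13000 genes, were Ckap4 (r = 0.97), Tceal9 (0.96), Postn (0.95), Eif4a1 (0.94), Vcl (0.94), Wdr1 (0.93), Emilin1 (0.93) and Pgam1 (0.93), a description with no test. Ckap4 is a membrane protein of the endoplasmic reticulum, and Postn and Emilin1 encode extracellular matrix proteins. In WT soleus, KO TA and WT TA, though not in KO soleus, Adipoq was lowest on replicate 3. The replicate 3 arrays are those that lay apart on the second principal component, and the part of that split in this likeness was not tested. By the same measure Scd1 (0.85) ranked number 72, Fabp4 (0.76) number 274 and Fasn (0.69) number 520 of 13008 genes. Postn, periostin, read between 12.82 and 13.69 in KO soleus, 11.19 and 12.97 in WT soleus, 10.24 and 11.49 in KO TA, and 8.70 and 11.21 in WT TA.

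Cidec, which lets lipid pass between touching droplets and is abundant in white fat, was close to the floor. It read 4.71, 3.19 and 5.88 in KO soleus and 5.60, 4.83 and 3.40 in WT soleus. On TA arrays it read 3.36, 3.35 and 3.37 in KO and 3.02, 3.35 and 3.05 in WT, all under log2 4. Only 4 soleus arrays, 2 of each genotype, lifted it above that mark. Soleus minus TA was 1.23 in KO (adjusted p = 0.283) and 1.47 in WT (adjusted p = 0.175). The KO TA arrays lay above the WT TA arrays without overlap, but all within the floor, and the difference was 0.22 (95% interval -1.21 to 1.66, adjusted p = 0.916).

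Cidea, the CIDE protein best known from brown fat, behaved unlike Cidec. It read 6.64, 7.39 and 7.36 in KO soleus and 7.22, 7.32 and 6.78 in WT soleus. It read 4.68, 6.50 and 7.06 in KO TA, whereas WT TA read 3.48, 3.66 and 3.79. WT TA was thus at the floor on all 3 arrays, KO TA was above it on all 3, and KO TA replicates 2 and 3 came close to or within the soleus values.

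Cidea was 5.41-fold higher in KO TA than in WT TA (log2 difference 2.44, SE 0.51, 95% interval 1.31 to 3.56, adjusted p = 0.0356), ranking number 260 of 13009 genes by p. It was the 1 of 9 genes past the test there, where 2.83% of all genes passed and 1.42% passed as higher. The WT TA level is near the floor, so the fold is only as good as that reading. The difference stayed positive without any 1 TA array, at 1.94 to 3.14, but the call was lost without KO TA replicate 2 (2.23, adjusted p = 0.118) or 3 (1.94, adjusted p = 0.107) and without WT TA replicate 1 (2.35, adjusted p = 0.102), 2 (2.45, adjusted p = 0.0877) or 3 (2.51, adjusted p = 0.0725). It was also lost with only the 6 TA arrays in the fit (adjusted p = 0.148) and with 32 added to the linear signal (1.24, adjusted p = 0.0847).

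In soleus Cidea differed between KO and WT by 0.03 (95% interval -1.10 to 1.15, adjusted p = 0.999). The difference of the KO effects, soleus minus TA, was -2.41 (SE 0.72, unadjusted p = 0.00717, adjusted p = 0.59) and did not pass, except without KO TA replicate 1 (-3.11, adjusted p = 0.023). KO soleus and KO TA overlapped in Cidea and differed by 1.06 (SE 0.51, adjusted p = 0.239), while WT soleus exceeded WT TA by 3.47 (SE 0.51, adjusted p = 0.00255), again against a WT TA reading at the floor.

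The Cidea difference in TA was 2.67 with Adipoq of each array as a covariate (adjusted p = 0.0434), and it was 2.51 without WT TA replicate 3, the array poorest in Adipoq. The slope of Cidea on Adipoq within groups was -0.151, and mean Adipoq was higher in KO TA than in WT TA by 1.56. With these signs the covariate could only enlarge the difference. The covariate had a common slope over both muscles, and Adipoq lay at the floor on WT TA replicate 3. The part of fat cells in the Cidea reading was not tested. Of 14 brown fat markers listed, 13 had a probe set and 8 were tested. In TA only Cidea of these 8 passed between KO and WT, where 1.42% of all genes passed as higher, and the list median was 0.03. The probe set of Ucp1, the uncoupling protein that defines brown fat, did not pass the filter on dim signals, nor did those of Elovl3, Otop1 and Cpn2. Dio2, Zic1 and Kcnk3 were under log2 4 on all 6 TA arrays. Dio2, the deiodinase that activates thyroid hormone, rose in KO soleus over KO TA by 1.95 (SE 0.38, adjusted p = 0.0123), the 1 of the 8 that did, and Cidea was the 1 in WT. Blocked by replicate number, 2 rose in KO, with Ebf2 (0.47) added, and 3 in WT, with Dio2 (1.31) and Ebf2 (0.49) added. The share of all genes that passed as higher in soleus was 4.34% in KO and 4.44% in WT. With the block 16.9% and 18.2% passed, in either direction.

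Genes whose level ran most like that of Cidea over the 12 arrays were Ipo5 (r = 0.96), Vamp8 (0.96), Lmcd1 (0.95), Smtnl1 (0.95) and Hadh (0.95), again a description. In each of them WT TA had the lowest mean, and the KO TA mean lay between it and both soleus means. The likeness thus follows the genotypes within TA as well as the muscles. Hadh is a dehydrogenase of mitochondrial fatty acid oxidation. Lmcd1 read between 12.77 and 13.37 in KO soleus, between 12.78 and 13.003 in WT soleus, between 12.36 and 12.92 in KO TA and between 11.13 and 11.30 in WT TA (3 arrays each). Myh2, the myosin of fast oxidative fibres, averaged 14.50 ± 0.18 in KO TA and 12.85 ± 0.63 in WT TA, its lowest group (SD, n = 3 each), and rose in KO TA by 1.64 (SE 0.25, adjusted p = 0.011). It was the 1 of 12 muscle fibre markers past the test between genotypes in TA, and 0 of the 12 passed in soleus, with the replicate block or without. Over all genes 2.83% passed between genotypes in TA, and 7.02% with the block. The part of fibre composition in the Cidea reading was not tested.

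**Figure D3:**
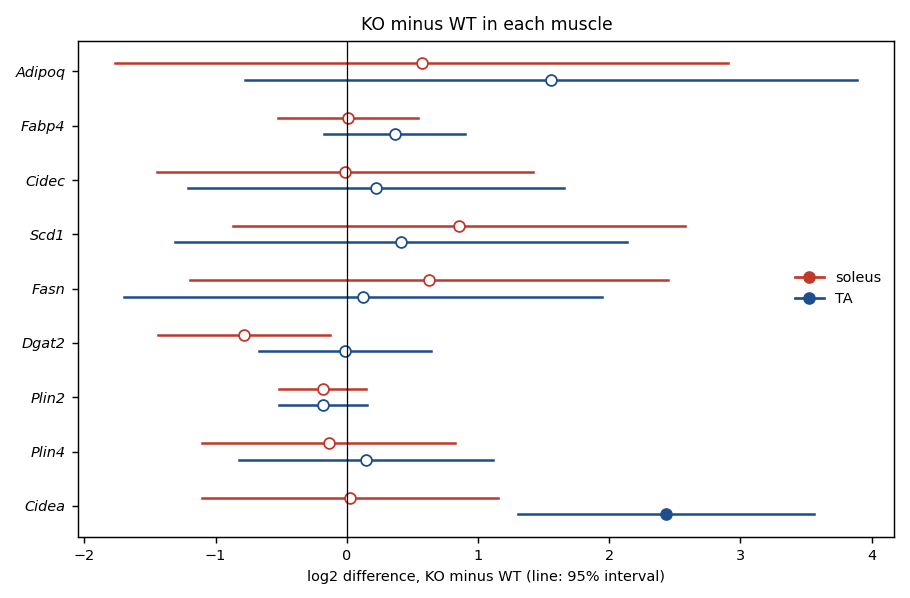
KO minus WT log2 difference of each gene (horizontal axis) in soleus and in TA, with 95% intervals of the linear model; filled points passed the test at an adjusted p of 0.05. Only Cidea in TA is filled, at 2.44, and every other interval except that of Dgat2 in soleus includes 0.

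Plin2, the coat protein of droplets in most cells, was steady. It read 9.60, 9.55 and 9.45 in KO soleus and 9.53, 9.99 and 9.63 in WT soleus, then 8.94, 8.61 and 8.94 in KO TA and 9.04, 9.17 and 8.82 in WT TA. Every soleus array was above every TA array, and the genotypes overlapped. Plin2 was higher in soleus by 0.70 in KO (SE 0.15, adjusted p = 0.0183) and by 0.70 in WT (SE 0.15, adjusted p = 0.0164), which is 1.63-fold in WT. KO minus WT was -0.18 in soleus (95% interval -0.52 to 0.15) and -0.18 in TA (-0.51 to 0.15). The muscle calls were close to the threshold, and were lost in KO without KO soleus replicate 1 (0.67, adjusted p = 0.0722) or 2 (0.69, adjusted p = 0.0529) or KO TA replicate 2 (0.59, adjusted p = 0.0714) and in WT without WT soleus replicate 2 (0.57, adjusted p = 0.0554) or WT TA replicate 3 (0.61, adjusted p = 0.0501).

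Plin4, a perilipin of adipocytes and oxidative muscle, did not follow either factor. It read 10.53, 10.73 and 11.64 in KO soleus, 10.31, 11.08 and 11.93 in WT soleus, 10.72, 10.84 and 11.35 in KO TA, and 10.41, 10.66 and 11.40 in WT TA. The array numbered 3 was the highest of each group, and these are the arrays that stood apart on the second component. All 4 groups overlapped, and the differences were -0.14 for KO minus WT in soleus, 0.15 in TA, -0.00 for soleus minus TA in KO and 0.28 in WT, with adjusted p from 0.715 to 0.999.

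Dgat2 catalyses the last step of triglyceride synthesis. It read 8.01, 7.78 and 8.22 in KO soleus and 8.16, 9.04 and 9.17 in WT soleus, against 6.20, 6.98 and 6.41 in KO TA and 6.53, 6.28 and 6.81 in WT TA. Soleus was above TA on every array. KO soleus exceeded KO TA 2.78-fold (1.48, SE 0.29, adjusted p = 0.0135) and WT soleus exceeded WT TA 4.76-fold (2.25, SE 0.29, adjusted p = 0.00146). The WT call held without any 1 array (2.06 to 2.57) and with Adipoq as a covariate (2.84, adjusted p = 0.0183). A second probe set was also higher in soleus without overlap. By limma over all probe sets it missed the threshold in KO (1.89, SE 0.53, adjusted p = 0.0681) and passed in WT (2.96, adjusted p = 0.00937).

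Dgat2 was lower in KO soleus than in WT soleus in its mean, with 1 WT array inside the KO range. The difference was -0.79 (SE 0.29, 95% interval -1.44 to -0.13, unadjusted p = 0.0232), which gave an adjusted p of 0.45 and did not pass. With array weights it was -1.02 (adjusted p = 0.0445), the 1 alternative under which it passed. The second probe set, which read 7.58, 7.24 and 8.34 in KO soleus and 7.60, 8.39 and 9.04 in WT soleus, differed by -0.62 (SE 0.53), and in TA by 0.45 (SE 0.53). On the tested probe set the KO minus WT difference in TA was -0.01 (95% interval -0.67 to 0.64), and the difference between the KO effects in the muscles was -0.77 (SE 0.42, adjusted p = 0.896).

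The counts over the set were read against those over all genes. In soleus 0 of 9 genes passed between KO and WT, where 4 of all genes did (0.0307%) and 1140 genes had an unadjusted p under 0.05, Dgat2 among them as the 1 of the 9. All 9 overlapped between the genotypes, where 12% of all genes did not, and their median difference was 0.01, against 0.00 over all genes. In TA 1 of 9 passed and the median was 0.22, against -0.00 over all genes. Cidea and Cidec were the 2 of 9 that did not overlap in TA, where 10.7% of all genes lay wholly higher in KO and 23.2% did not overlap in either direction. For the difference of the KO effects 0 of 9 passed, against 0.0384% of all genes, by limma, and 1 of 9, Cidea, had an unadjusted p under 0.05.

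Between muscles the set leaned one way. KO soleus had the higher mean in 8 of 9 genes, with a median of 1.23 against -0.02 over all genes, and 3 of 9 passed (Dgat2, Plin2 and Scd1), where 8.96% of all genes passed and 4.34% as higher. WT soleus had the higher mean in 9 of 9 genes, with a median of 1.60 against -0.02 over all genes, and 4 of 9 passed (Adipoq, Cidea, Dgat2 and Plin2), where 10.7% of all genes passed and 4.44% passed as higher. In KO 5 of 9 did not overlap, all higher, against 11.7% of all genes, and in WT 6 of 9, against 13.7%. Since KO soleus and KO TA arrays each also enter the genotype comparisons, these values are not independent of them.

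With Adipoq as a covariate the soleus minus TA difference of Scd1 shrank to 0.88 in KO (adjusted p = 0.548) and turned to -0.18 in WT, that of Fasn came to 0.15 in KO and -0.88 in WT, and that of Plin2 to 0.50 in KO and 0.44 in WT, none past the test. Those of Dgat2 (1.94 in KO, adjusted p = 0.0455, and 2.84 in WT) and of Cidea in WT (4.16, adjusted p = 0.0424) passed. Adipoq itself separates the muscles on every array, so the covariate and the muscle cannot be fully told apart in this fit.

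**Figure D4:**
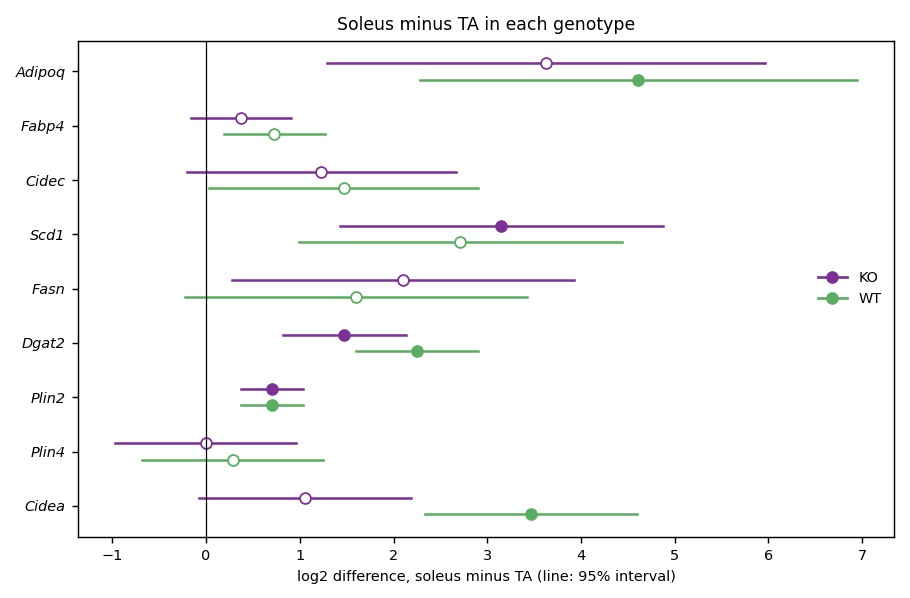
Soleus minus TA log2 difference of each gene (horizontal axis) in KO and in WT mice, with 95% intervals; filled points passed the test. Scd1 (3.15), Dgat2 (1.48) and Plin2 (0.70) are filled in KO, Adipoq (4.61), Cidea (3.47), Dgat2 (2.25) and Plin2 (0.70) in WT, and Plin4 lies at 0 or close to it in both.

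The other genes of droplets and lipid handling gave the setting. Of 20 droplet coat and assembly genes listed, 18 were tested. Between KO and WT in TA 1 rose, Cidea, where 1.42% of all genes did, with a list median of 0.12, and in soleus 0 passed (-0.04). With the replicate block 2 rose in KO TA, with Plin5 added (1.001, adjusted p = 0.0423), where 7.02% of all genes passed in either direction. In KO soleus over KO TA 2 rose, Plin2 and Ldah, a droplet-bound hydrolase (0.58, adjusted p = 0.0301), and 1 fell, Aup1 (-0.87, SE 0.22, adjusted p = 0.0379), a droplet protein that also takes part in degradation at the endoplasmic reticulum. Over all genes 8.96% passed in this comparison and 4.34% as higher. In WT soleus over WT TA 4 rose, which were Plin2, Cidea, Plin5, a perilipin of oxidative muscle (2.20, SE 0.52, adjusted p = 0.0251, named after its value was seen), and Ldah (0.64, SE 0.14, adjusted p = 0.018), against 4.44% of all genes. In the blocked fit 4 rose and 2 fell in KO, with Plin5 (0.86), Mettl7a1 (0.41) and Fitm1 (-0.48) added, and 5 rose in WT, with Plin3 (1.43) added. Of all genes 16.9% and 18.2% passed there, in either direction.

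Of 13 triglyceride synthesis genes tested, 0 passed between KO and WT in either muscle. Agpat2, which makes phosphatidic acid and whose loss in humans causes lipodystrophy, averaged 7.30 ± 0.83 in KO TA and 4.66 ± 1.22 in WT TA (SD, n = 3 each), a difference of 2.64 (SE 0.62) that missed the threshold by limma (adjusted p = 0.0548). Its WT TA arrays spanned 3.66 to 6.02 with a median of 4.29, reaching under log2 4. That limits this difference and the WT soleus over WT TA difference below. With the replicate block 3 of the 13 rose in KO TA, Agpat2, Agpat3 (0.73) and Lpin1 (0.64), where 7.02% of all genes passed in either direction. Gpd1, which supplies glycerol-3-phosphate from glycolysis, was lower in soleus than in TA, with a log2 difference of -3.62 in KO (SE 0.36, adjusted p = 0.000364) and -3.37 in WT (adjusted p = 0.000407). In KO soleus over KO TA 1 of the 13 rose, Dgat2, and 1 fell, Gpd1. In WT 3 rose, Dgat2, Agpat3 (0.99) and Agpat2 (2.56, adjusted p = 0.0296), and 2 fell, Gpd1 and Agpat1 (-0.95), of which Agpat2 and Agpat1 were named after their values were seen. The block added Lpin1 as lower in KO (-1.11) and Gpat3 as higher in WT (0.74). Between the KO muscles 8.96% of all genes passed (4.34% as higher in soleus), and between the WT muscles 10.7% (4.44% as higher). With the block 16.9% and 18.2% passed, in either direction.

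Of 19 genes of fatty acid synthesis and desaturation, 1 rose in KO TA over WT TA, where 1.42% of all genes did. Mid1ip1, an activator of acetyl-CoA carboxylase, averaged 10.12 ± 0.41 in KO TA and 8.80 ± 0.31 in WT TA, a difference of 1.31 (SE 0.22, adjusted p = 0.0155). With the replicate block 3 of the 19 rose, with Acaca (1.51) and Scd2 (1.56) added, where 7.02% of all genes passed in either direction. In soleus 0 passed between KO and WT, with Scd1 (0.85) and Acaca (0.77), the carboxylase itself, as the largest differences. In KO soleus over KO TA 2 rose, Scd1 and Acss2 (1.31), which makes acetyl-CoA from acetate, and 1 fell, Srebf1, a transcription factor of lipid synthesis (-1.48, SE 0.37, adjusted p = 0.0365). In WT soleus over WT TA 3 rose, Mid1ip1 (1.48), Acss2 (1.46) and, named after its value was seen, the elongase Elovl5 (0.85), and 1 fell, Me1 (-1.84, SE 0.24, adjusted p = 0.00131), malic enzyme, a source of cytosolic NADPH. Blocked by replicate number, 4 rose and 2 fell in KO, with Acly (0.78), Fasn and Scd2 (-1.49) added, and 5 rose and 2 fell in WT, with Scd1, Acaca (1.08) and Srebf1 (-1.31) added. Among all genes 8.96% passed between the KO muscles (4.34% as higher in soleus) and 10.7% between the WT muscles (4.44% as higher). With the block these shares were 16.9% and 18.2%, in either direction.

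For the next lists, the share of all genes past the test was 0.0307% between genotypes in soleus and 2.83% in TA. It was 8.96% between the KO muscles (4.34% higher in soleus) and 10.7% between the WT muscles (4.44% higher). With the replicate block it was 7.02% for TA genotypes, 16.9% for KO muscles and 18.2% for WT muscles, in either direction. Of 10 lipolysis genes, 0 passed between genotypes in either muscle, and Mgll, the monoglyceride lipase, rose in WT soleus over WT TA (1.14, SE 0.17, adjusted p = 0.00262) as the 1 of the 10. In the blocked fit Lipa, the lysosomal acid lipase, rose in KO TA (0.53, adjusted p = 0.0359), Mgll in KO soleus over KO TA (0.47), and Lipe (0.71) and Lipa (0.47) also in WT soleus over WT TA. Of 14 genes of fatty acid uptake and PPAR targets, 0 passed between genotypes. In KO soleus over KO TA 3 rose, by 0.93 for Cd36, the fatty acid translocase, 0.94 for Fabp3, the fatty acid carrier of muscle, and 1.26 for Lpl, and 0 fell. In WT soleus over WT TA 4 rose, which were Cd36 (1.59), Fabp3 (1.49), Lpl and the transporter Slc27a1 (0.91), and 1 fell, the nuclear receptor Ppard (-0.93). Slc27a1 and Ppard were named after their values were seen. With the replicate block Ppard fell in KO TA (-0.80, adjusted p = 0.0424), 3 fell in KO soleus against KO TA, Vldlr (-1.27), Ucp3 (-1.52) and Ppard (-0.68), and in WT soleus against WT TA Pdk4 rose (1.29) and Vldlr fell (-0.62) as well. Of 12 regulators of fat cell formation, 0 passed between genotypes, 1 fell in KO soleus against KO TA, Srebf1, and 0 passed in WT soleus against WT TA. Under the same block Cebpd fell in KO TA (-1.66, adjusted p = 0.0278), Ebf2 rose in soleus over TA in KO (0.47) and WT (0.49), and Srebf1 fell there in WT (-1.31). Pparg, the master regulator of fat cells, differed between KO and WT by -0.11 in soleus and 0.17 in TA, and was named for its role outside the naming rule.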

How the data were processed

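The 12 one-colour Affymetrix arrays were deposited as a table of log2 signals for 45101 probe sets, from 0.89 to 16.36, with 0 missing. Per the labels' protocols, RNA was extracted with Trizol and labelled with biotin, and the submitters' processing notes name MAS5 with no version or role. How probe signals were summarised into the deposited log2 values was not stated in the sources used here. No detection calls or depth were used, so the 3 arrays per group limit the precision. Groups and replicate numbers came from the titles.

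The 2% trimmed means of the arrays differed by up to 1.11 times, so quantile normalization was applied. A filter kept the 27497 probe sets whose signal exceeded log2 2.76, the 40th percentile of all values, on at least 3 arrays. Of all probe sets 34945 had 1 symbol, 932 several and 9160 none. The brightest probe set of each gene was tested, 13009 genes in all, with limma 3.58.1 in R 4.3.3. The model had 4 group means over 12 arrays, and eBayes modelled the trend of variance with signal. P-values were 2-sided, adjusted by the Benjamini-Hochberg method across the 13009 genes and called under 0.05. P-values measure the spread between arrays called biological replicates. An exact permutation test of 3 arrays against 3 cannot go below p = 0.1. The fit was tested on simulated data.

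The genes and lists were chosen with earlier results of these data known. Named were all 10 genes of the set, up to 3 members past the test of each list and comparison (with none past, up to 2 with the largest difference), the 8 genes most like Adipoq and the 5 most like Cidea. Likeness and covariate had been planned on the mean of Adipoq and Plin1 and used Adipoq alone. Equal replicate numbers were checked as pairs by the correlation of deviations from group means, which was 0.43, 0.09 and 0.61 between KO and WT soleus, 0.35, 0.16 and 0.56 between KO and WT TA, 0.49, 0.43 and 0.59 between the KO muscles and 0.35, 0.14 and 0.59 between the WT muscles. The soleus genotypes fell short of the limit of 0.1, and in the others the replicate block is given with the calls it changes among the 9 genes and the lists of adipocyte, lipid and other cell markers. The pairing comes from these values and not from the labels. Unlike numbers 1 and 2 could correlate as much as equal ones. KO TA replicate 2 with WT TA replicate 1 gave 0.204, and WT soleus replicate 2 with WT TA replicate 1 gave 0.218. Between the KO muscles the unlike pairs of 1 and 2 gave -0.02 and 0.0976. Number 3 correlated negatively with the other numbers in all pairs of groups. Matching of numbers 1 and 2 is thus not shown for the TA genotypes or the WT muscles. Alternatives varied the normalization, filter, probe sets, pseudocount, variance model, arrays, weights, block, covariate and replicates.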

Additional observations from a re-analysis of the deposited data

How the results depend on the processing

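Cidea in TA and the muscle differences of Adipoq, Cidea, Dgat2 and Plin2 kept their sign under all alternatives, and the lost calls among them stand beside the results above, except for the following losses. With only the arrays of the groups compared, Scd1 in KO (adjusted p = 0.0676) and Adipoq (0.0868) and Plin2 (0.0714) in WT were lost, without a filter Cidea in TA (0.0546) and Scd1 in KO (0.0517), and without the arrays numbered 3 of all groups Cidea in TA (2.02, adjusted p = 0.179), Plin2 in KO (0.0549) and WT (0.0855) and Dgat2 (0.0867) and Scd1 (0.0934) in KO. The replicate block changed no other call of the 9 genes than those given above; in soleus Dgat2 had adjusted p = 0.251 with the block.

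Some differences passed only under an alternative. Soleus minus TA of Adipoq in KO passed as deposited (adjusted p = 0.0487), above a mean log2 of 5 (0.0304), with a pseudocount of 32 (0.0288), with only the KO arrays (0.0412), with array weights (0.0372) and without the arrays numbered 3 (0.0458). In WT that of Scd1 passed as deposited (0.036), with median centring (0.0385), above a mean log2 of 5 (0.0291), with array weights (0.0136) and without WT soleus replicate 3 (0.0166), that of Fabp4 with median centring (0.0471), array weights (0.0214), without WT soleus replicate 3 (0.0278) and without the arrays numbered 3 (0.0388), and that of Cidec with array weights (0.0437).

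Counts of genes past the test over all 13009 are given for KO against WT in soleus (4), in TA (368), the difference of these effects (5), WT soleus against TA (1392) and KO soleus against TA (1165). With the replicate block, TA had 913, the WT muscles 2369 and the KO muscles 2194. With only the arrays compared they were 0 (soleus), 4 (TA), 706 (WT) and 631 (KO), from a spread estimated on fewer arrays. With array weights they were 360 (soleus), 10 (difference) and 2800 (WT). With Adipoq as a covariate the WT muscles had 323 and the KO muscles 314. Soleus had 1 with no filter and 2 with no variance trend. The difference had 3 with median centring, 3 with no filter, 1 with a mean log2 above 5, 1 with no variance trend and 8 with every probe set tested. Without the arrays numbered 3 of all groups TA had 56 and the difference 8. Leaving out 1 array gave 3 to 30 genes in soleus (30 without WT soleus replicate 1), 85 to 398 in TA (85 without KO TA replicate 2), 1 to 20 for the difference (20 without KO TA replicate 1), 699 to 1281 in WT and 585 to 1072 in KO. The split of higher and lower calls in TA was 185 and 183, but 293 and 117 with median centring and 218 and 148 as deposited. For WT soleus against TA it was 578 and 814, but 920 and 469 with median centring, and for KO soleus against TA 565 and 600, but 654 and 417 with median centring and 681 and 458 as deposited. The median of all genes moved by under 0.1 under either scaling.

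Only differences that did not pass the test in the reported fit changed sign. The cause was not tested. KO minus WT in soleus turned with array weights for Adipoq (-0.052), Fabp4 (-0.045) and Cidea (-0.14), with median centring for Fabp4 (-0.0060), with Adipoq as a covariate for Fabp4 (-0.089) and Plin4 (0.022), and for Cidec as deposited (0.012) and with a pseudocount of 32 (0.024). Without the arrays numbered 3 of all groups it turned for Adipoq (-0.36), Fabp4 (-0.086), Cidea (-0.26) and Scd1 (-0.088). KO minus WT in TA turned for Dgat2 as deposited (0.070), with median centring (0.12), with array weights (0.013), with the covariate (0.19) and without the arrays numbered 3 (0.18), and with the covariate for Cidec (-0.30), Scd1 (-0.56) and Fasn (-0.71). The difference of the KO effects turned with the covariate for Cidec (0.094) and Plin2 (0.052), and without the arrays numbered 3 for Plin2 (0.15), Scd1 (-0.36) and Fasn (-0.40). Soleus minus TA turned with the covariate in WT for Fabp4 (-0.053), Cidec (-0.090), Scd1 (-0.18) and Fasn (-0.88), and in KO for Fabp4 (-0.24) and Plin4 (1.02). That of Plin4 in KO was 0.059 as deposited and 0.072 with median centring.

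Leaving out 1 array also turned signs. In soleus KO minus WT ran from -0.24 to 1.15 for Adipoq, -0.14 to 0.27 for Cidea, -0.66 to 0.69 for Cidec, -0.23 to 0.17 for Fabp4, -0.15 to 1.14 for Fasn and -0.54 to 0.27 for Plin4. In TA it ran from -0.24 to 0.15 for Dgat2, -0.42 to 0.62 for Fasn and -0.064 to 0.43 for Plin4. The difference of the effects ran from -1.80 to 0.21 for Adipoq, -0.88 to 0.46 for Cidec, -0.27 to 1.04 for Fasn, -0.11 to 0.13 for Plin2, -0.68 to 0.13 for Plin4 and -0.34 to 1.14 for Scd1. Soleus minus TA of Plin4 ran from -0.34 to 0.22 in KO and -0.13 to 0.68 in WT. With 3 arrays per group the 95% intervals of Adipoq, Scd1 and Fasn allow large changes in either direction, and readings near the floor, such as Cidec and Cidea in WT TA, have no reliable order.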

Other observations

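Some values of single genes were not given above. Agpat3 averaged 9.80 ± 0.32 in KO TA and 9.07 ± 0.19 in WT TA (SD, n = 3 each), a difference of 0.73 by limma (SE 0.19, adjusted p = 0.0698, and 0.027 with the replicate block). Ppara, a nuclear receptor of fatty acid oxidation, had the largest difference of its list between genotypes in soleus, at -2.14 (SE 0.63, adjusted p = 0.313), and differed by -1.34 in TA (adjusted p = 0.324). Cebpd, an early factor of fat cell formation, differed by -0.94 in soleus (adjusted p = 0.783) and -1.66 in TA (0.188, and 0.0278 with the replicate block). For the slope on Adipoq within groups, each log2 unit of Adipoq went with 0.63 log2 units of Scd1, 0.54 of Fasn, 0.34 of Cidec and 0.17 of Fabp4, against -0.15 for Cidea, -0.13 for Dgat2 and -0.28 for Plin4, as a description of these 12 arrays.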
